A study of Homo sapiens with 6 samples.

Results

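The genes described here are 38 lysosomal genes, taken by symbol from the 63241 rows of the deposited expression table, with 1 row for each symbol. They encode soluble hydrolases, activator proteins of those hydrolases, proteins of the lysosomal membrane, and the transcription factors TFEB and TFE3. RNA of T24, a long-established line from a human bladder cancer, was sequenced from cells given a small interfering RNA against USP43 (siUSP43, 3 libraries, genotype labelled as a USP43 knockdown) or a control (siNC, 3 libraries, genotype labelled WT). USP43 removes ubiquitin from proteins, and the question of the series was its role in the lipid metabolism of bladder cancer. All 6 samples carry the same batch label, and all come from the same cell line. The labels do not say whether the 3 samples of a group were separate cultures, nor whether a single duplex was used for all siUSP43 samples, and the p-values therefore reflect spread among these samples that may be technical only.

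The lysosome is the acidic organelle in which proteins, glycans and lipids delivered by endocytosis and autophagy are broken down. Its hydrolases are made in the endoplasmic reticulum, tagged with mannose 6-phosphate in the Golgi, sorted by receptors and activated at the low pH that a proton pump, the V-ATPase, maintains. TFEB and TFE3, which belong to the MiT family, bind an E-box motif in the promoters of many lysosomal genes and can raise their transcription together when cells are starved or lysosomes are stressed.

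Library totals ran from 21430574 to 25577200 gene counts, and the 38 genes took 0.456 to 0.476% of the counts in siUSP43 libraries and 0.504 to 0.515% in siNC libraries. USP43 was at 1.02, 0.67 and 0.8 FPKM in siUSP43, against 2.36, 2.09 and 2.08 FPKM in siNC (log2 fold change -1.40, SE 0.14, edgeR with Benjamini-Hochberg adjustment, adjusted p = 5.63e-06), and an exact two-sided permutation test gave p = 0.1, the smallest that 3 against 3 values allow. USP43 passed the filter on low values described below only through its siNC libraries, and its log2 fold change was -0.80 with limma on log2(FPKM + 1). FPKM are fragments per kilobase of a gene's exonic bases and scaled to library size, and since that length takes in every annotated exon, genes with long annotated exons have lower FPKM relative to other genes. The 6 epithelial markers summed to 466 to 530 FPKM in siUSP43 and 524 to 541 FPKM in siNC, nearly all of it KRT7, KRT18 and KRT8. KRT7 averaged 184 FPKM in siUSP43 and 236 FPKM in siNC, whereas KRT18 averaged 216 FPKM in siUSP43 and 198 FPKM in siNC. KRT19 was at 8.82 to 9.78 FPKM in siUSP43 and 11.8 to 12.4 FPKM in siNC, and EPCAM averaged 1.24 FPKM in siUSP43 and 0.587 FPKM in siNC. CDH1 did not exceed 0.02 FPKM in any library, and 6 of 7 urothelial markers, the uroplakins among them, stayed below 1 FPKM. Of those 6, GATA3 averaged 0.257 FPKM in siUSP43 and 0.43 FPKM in siNC. PPARG, the remaining urothelial marker, averaged 2.74 FPKM in siUSP43 and 1.92 FPKM in siNC. None of the 6 fibroblast and 4 endothelial markers reached 1 FPKM.

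Genes with a mean of at least 1 FPKM over the 6 libraries were tested, which left 34 of the 38. Of the 34, 6 rose, 16 fell and 12 did not pass in siUSP43 (edgeR's quasi-likelihood test, Benjamini-Hochberg adjusted p under 0.05 over all 11417 genes tested). The share called, 64.7%, was close to the 56.1% of all tested genes that were called. By direction, 47.1% of the lysosomal genes fell, beside 28.1% of all tested genes, and 17.6% rose, beside 28.0%. Their median log2 fold change, siUSP43 over siNC, was -0.15, beside -0.008 for all tested genes. An absolute log2 fold change of at least 0.5 was reached by 11 of the 22 called genes, of which 8 fell and 3 rose. CTSV, CTSS and NEU1 fell by a log2 fold change of more than 1, which 2.29% of all tested genes did, and 0 of the 34 rose that far, beside 1.39% of all tested genes. The siUSP43 and siNC values did not overlap for 22 of the 34, all called genes but IDS together with MANBA, beside 62.2% of all tested genes.

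**Figure D1:**
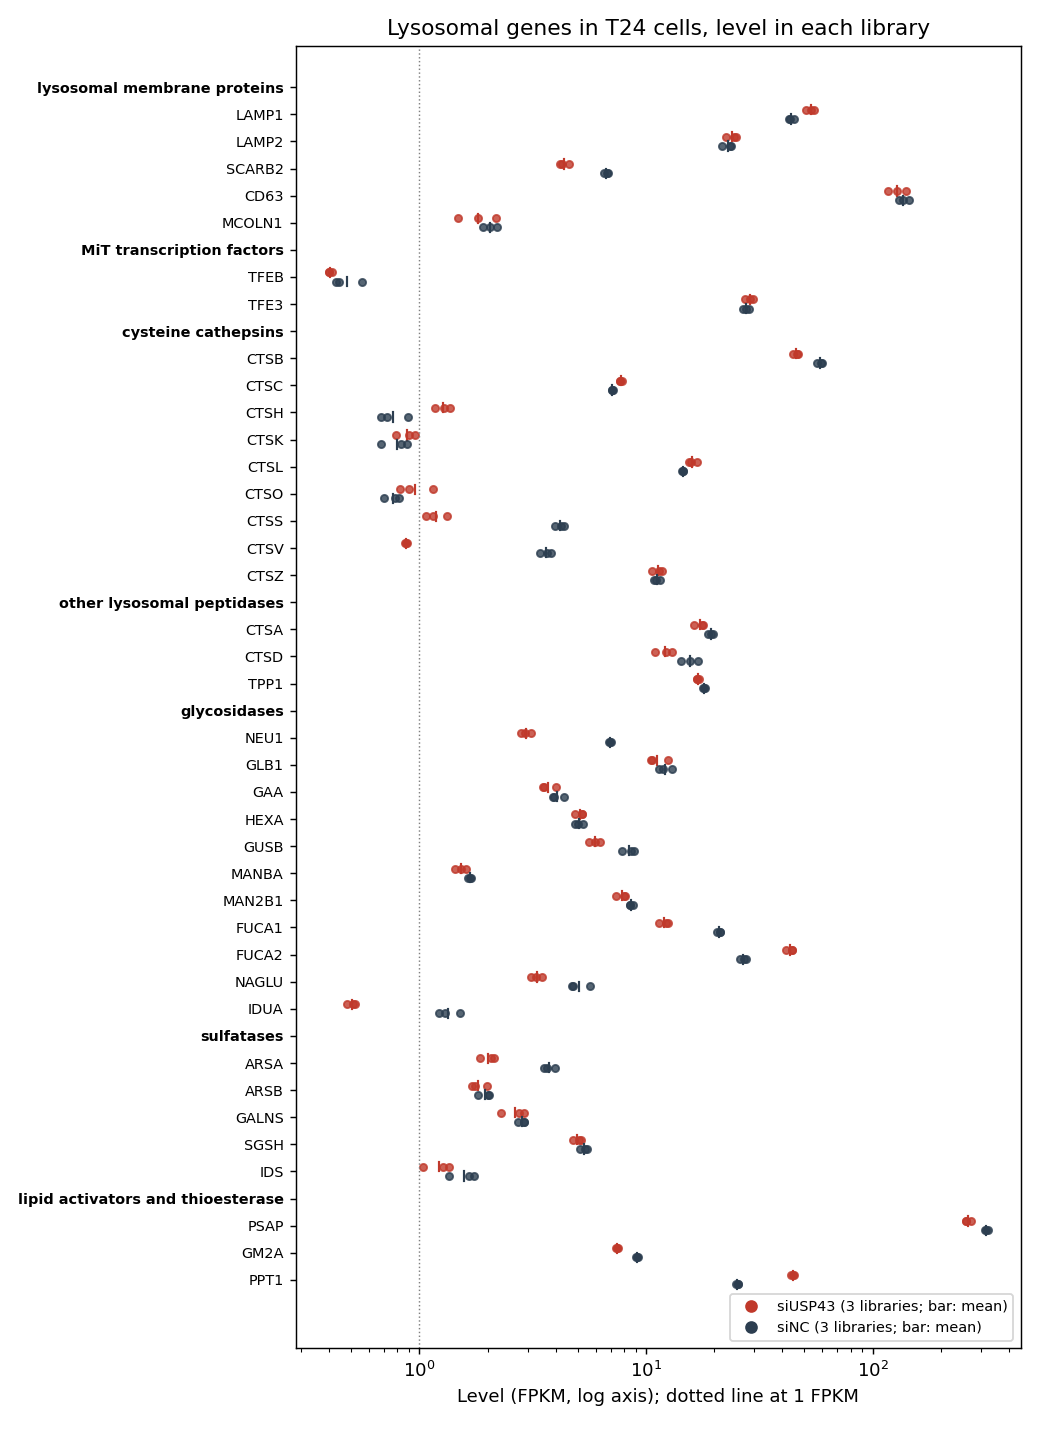
Level of each of the 38 lysosomal genes in FPKM on a log axis, grouped by class; each point is a library (red, siUSP43; dark blue, siNC), short bars are group means of 3 libraries, and the dotted line marks 1 FPKM. PSAP has the highest level, near 263 FPKM in siUSP43 and 318 FPKM in siNC, and the groups stand widest apart for CTSV, CTSS, NEU1 and IDUA.

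**Figure D2:**
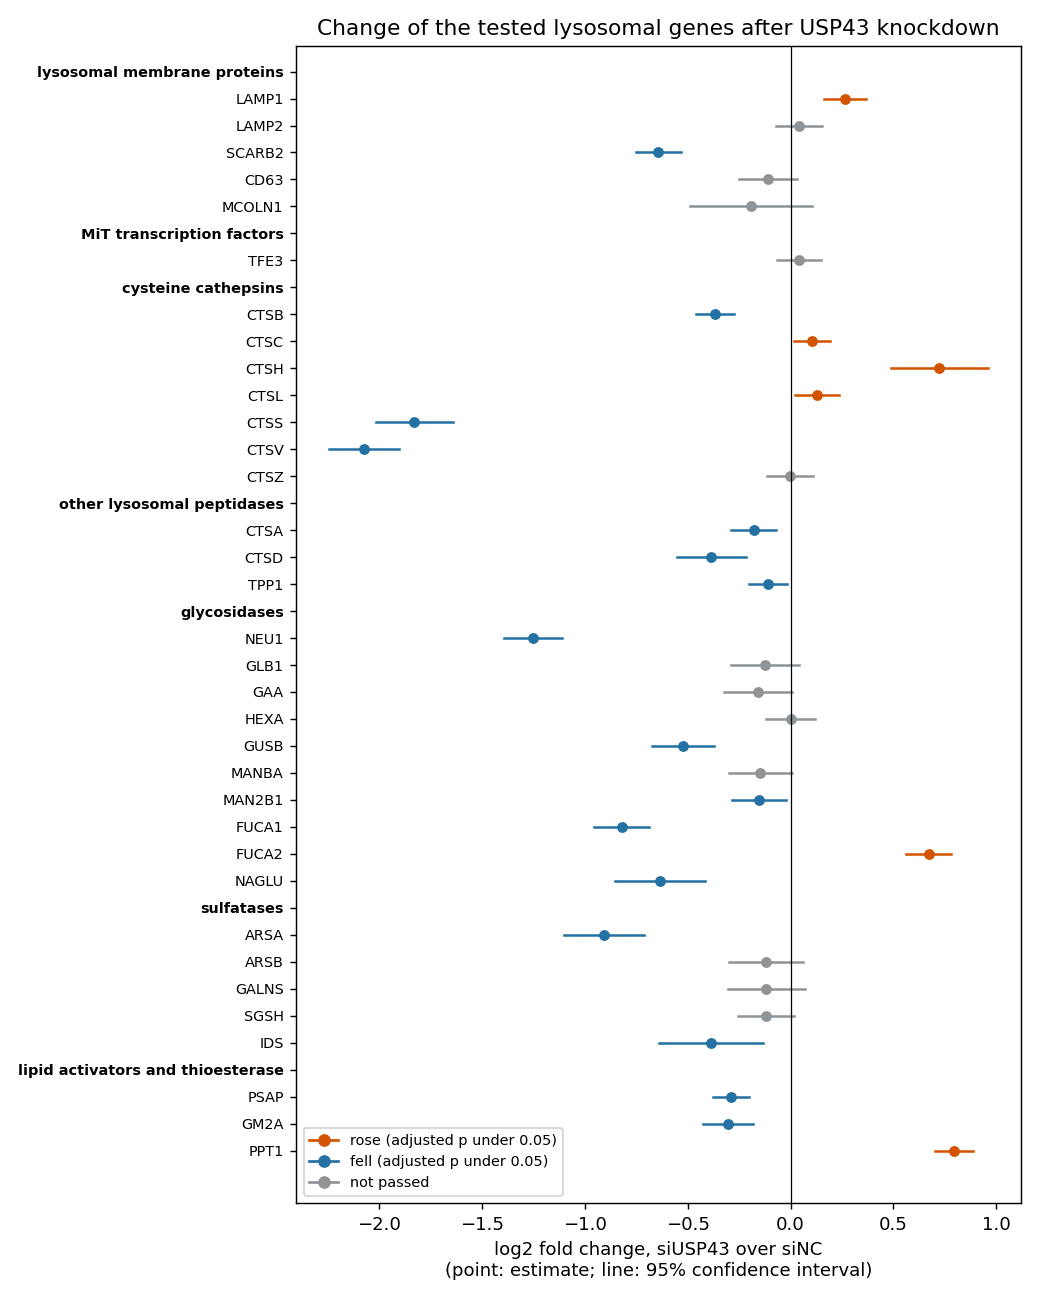
Log2 fold change, siUSP43 over siNC, of the 34 tested lysosomal genes; points are estimates, lines are 95% confidence intervals, and colour gives the call (orange rose, blue fell, grey did not pass). Estimates run from -2.07 for CTSV to 0.79 for PPT1, and each class with more than 3 tested members holds both called genes and genes that did not pass.

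The cysteine cathepsins, papain-like proteases that digest protein inside the lysosome, held the largest falls and also 3 increases. Of 7 tested, 6 were called (85.7%, beside 56.1% of all tested genes). CTSV (ENSG00000136943, GRCh38 chromosome 9, 97029677 to 97156556, minus strand), a cathepsin L-like protease known from thymus, testis and cornea, had 0.88, 0.86 and 0.87 FPKM in siUSP43, against 3.8, 3.66 and 3.4 FPKM in siNC. Every siUSP43 library lay below every siNC library, and the 3 siUSP43 values were nearly the same. The log2 fold change was -2.07 (SE 0.08, edgeR, adjusted p = 4.58e-09), and only 0.131% of tested genes had a larger decrease. It was -1.30 with limma on log2(FPKM + 1), a scale that understates changes at such low levels. CTSV passed the filter on low values only through its siNC libraries.

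CTSS (ENSG00000163131, chromosome 1, 150730079 to 150765957, minus strand), the protease that trims the invariant chain of MHC class II in antigen-presenting cells, had 1.07, 1.15 and 1.33 FPKM in siUSP43, against 4.34, 4.2 and 3.97 FPKM in siNC. The groups again stood well apart, with a log2 fold change of -1.83 (SE 0.09, edgeR, adjusted p = 2.00e-08). CTSS is abundant in macrophages. Of 7 leukocyte and macrophage markers, TYROBP was at 0 in all 6 libraries and PTPRC did not exceed 0.01 FPKM. The summed level of the 7 was 0.45 to 0.59 FPKM in siUSP43 and 0.98 to 1.15 FPKM in siNC, nearly all of it CD14, and its part in the CTSS result was not tested. In bulk RNA, fewer cells that express a gene and less of its RNA per cell cannot be told apart.

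CTSB, both an endopeptidase and a carboxypeptidase, had the highest FPKM of the class. It was at 46.89, 46.53 and 44.63 FPKM in siUSP43, against 56.87, 59.5 and 59.55 FPKM in siNC. It fell by 0.37 on the log2 scale (SE 0.04, edgeR, adjusted p = 2.03e-05), and no siUSP43 value reached the lowest siNC value. CTSH (chromosome 15, 78921058 to 78949574, minus strand), an aminopeptidase, moved the other way. It had 1.37, 1.29 and 1.17 FPKM in siUSP43, against 0.72, 0.68 and 0.89 FPKM in siNC, a log2 fold change of 0.72 (SE 0.11, edgeR, adjusted p = 1.36e-04), which was 0.37 with limma on log2(FPKM + 1). CTSH passed the filter at a mean of 1.02 FPKM over the 6 libraries only through its higher siUSP43 values.

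CTSL, a broad endopeptidase, and CTSC, the dipeptidyl peptidase that activates granule serine proteases, rose slightly. CTSL was at 15.75, 16.81 and 15.5 FPKM in siUSP43, against 14.51, 14.53 and 14.45 FPKM in siNC, a log2 fold change of 0.13 (SE 0.05, edgeR, adjusted p = 0.0431). CTSC was at 7.66, 7.7 and 7.81 FPKM in siUSP43, against 7.1, 7.08 and 7.12 FPKM in siNC, without overlap, and had a log2 fold change of 0.10 (SE 0.04, edgeR, adjusted p = 0.0447). Both calls ended in 8 of 14 alternative fits, among them those without any 1 of the siNC libraries or without siUSP43 replicate 1 or 2, where adjusted p lay between 0.0631 and 0.149. CTSZ, a carboxypeptidase, had 11.3 ± 0.597 FPKM in siUSP43 and 11.2 ± 0.372 FPKM in siNC (SD, n = 3 each), and the 95% interval of its log2 fold change was -0.12 to 0.11.

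CTSK and CTSO were below the filter. CTSK, the collagen-degrading protease of osteoclasts, had 0.9, 0.96 and 0.79 FPKM in siUSP43, against 0.68, 0.88 and 0.83 FPKM in siNC, and these groups overlapped. CTSO had 0.82, 0.9 and 1.15 FPKM in siUSP43, against 0.78, 0.81 and 0.7 FPKM in siNC. The lowest siUSP43 value lay only just above the highest siNC value, and siUSP43 replicate 3 stood highest. CTSO was not in the fits that leave out a library. With no filter on low values (33934 genes in the fit, 23.3% called), CTSO had a log2 fold change of 0.32 (SE 0.12, edgeR, adjusted p = 0.0404) and CTSK one of 0.14 (adjusted p = 0.517).

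CTSV and CTSL lie on the same chromosome and are the closest pair of the class, so their coding sequences are shown where they are most alike. Over the aligned coding bases of GENCODE release 29 transcripts (GRCh38) they were 83.5% identical, and the longest run of identical bases held 40 bases. For the other 35 pairs of cysteine cathepsins the longest shared run was 21 bases or fewer. The windows below cover coding bases 410 to 489 of each gene, 5′ to 3′ on the coding strand, with the shared run in capitals:
CTSV: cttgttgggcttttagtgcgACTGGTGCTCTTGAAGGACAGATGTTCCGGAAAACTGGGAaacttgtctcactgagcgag
CTSL: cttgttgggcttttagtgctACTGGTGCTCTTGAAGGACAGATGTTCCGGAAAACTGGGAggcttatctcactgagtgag
Only a read of 40 bases or fewer can lie within this run, and such a read cannot be assigned to either gene by sequence. The ratio of CTSV to CTSL in FPKM was 0.0559, 0.0512 and 0.0561 in siUSP43, against 0.262, 0.252 and 0.235 in siNC, with CTSV lower and CTSL slightly higher in siUSP43.

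The 3 peptidases of other classes fell, as did 28.1% of all tested genes. CTSD, the main aspartic protease of the lysosome, was at 12.31, 12.96 and 11 FPKM in siUSP43, against 14.22, 15.56 and 17 FPKM in siNC, a log2 fold change of -0.39 (SE 0.08, edgeR, adjusted p = 0.00114). CTSA, a serine carboxypeptidase that also protects NEU1 and GLB1 in a complex, was at 17.68, 17.85 and 16.33 FPKM in siUSP43, against 19.36, 18.8 and 19.82 FPKM in siNC (log2 fold change -0.18, SE 0.05, edgeR, adjusted p = 0.00951). TPP1, the tripeptidyl peptidase lost in a neuronal ceroid lipofuscinosis, had a log2 fold change of -0.11 (SE 0.04, edgeR, adjusted p = 0.0439). That call ended in 12 of 14 alternative fits, including all 3 without a siNC library and that without siUSP43 replicate 1, with adjusted p of 0.107 to 0.135 in those 4.

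Among the glycosidases, which remove sugars from glycoproteins, glycolipids and glycosaminoglycans, 5 fell, 1 rose and 4 did not pass. The share called was 60.0%, close to the 56.1% of all tested genes. NEU1 (ENSG00000204386, chromosome 6, 31857659 to 31862905, minus strand), the lysosomal sialidase, had 2.92, 3.11 and 2.81 FPKM in siUSP43, against 6.89, 6.99 and 6.91 FPKM in siNC. The siNC values were nearly equal and more than double every siUSP43 value, with a log2 fold change of -1.25 (SE 0.07, edgeR, adjusted p = 3.75e-08). The enzyme works in a complex with CTSA and GLB1, and the ratio of NEU1 to CTSA in FPKM was 0.165, 0.174 and 0.172 in siUSP43, against 0.356, 0.372 and 0.349 in siNC. GLB1, the beta-galactosidase of the same complex, was at 10.56, 10.59 and 12.46 FPKM in siUSP43, against 11.86, 13.02 and 11.38 FPKM in siNC, overlapping groups with a 95% interval of -0.29 to 0.04 (log2), although without siUSP43 replicate 3 it fell by 0.21 (edgeR, adjusted p = 0.00884).

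The fucosidases moved in opposite directions. FUCA1 (chromosome 1, 23845077 to 23868290, minus strand), the lysosomal enzyme, had 11.39, 12.5 and 12.21 FPKM in siUSP43, against 21.18, 21.25 and 20.54 FPKM in siNC, and fell by 0.82 on the log2 scale (SE 0.06, edgeR, adjusted p = 6.32e-07). FUCA2 (chromosome 6, 143494812 to 143511720, minus strand), its mostly secreted relative, had 43.99, 44.03 and 41.39 FPKM in siUSP43, against 25.87, 26.95 and 27.49 FPKM in siNC, and rose by 0.67 (SE 0.05, edgeR, adjusted p = 5.84e-07). Neither pair of groups overlapped. The FUCA1 to FUCA2 ratio in FPKM was therefore 0.259, 0.284 and 0.295 in siUSP43, against 0.819, 0.788 and 0.747 in siNC. Their coding sequences were 63.4% identical, with no shared run above 18 bases.

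NAGLU and GUSB, both exoglycosidases of glycosaminoglycan breakdown, fell. NAGLU was at 3.11, 3.49 and 3.27 FPKM in siUSP43, against 4.76, 4.7 and 5.65 FPKM in siNC (log2 fold change -0.63, SE 0.10, edgeR, adjusted p = 2.04e-04). GUSB was at 5.95, 6.26 and 5.58 FPKM in siUSP43, against 8.85, 8.55 and 7.87 FPKM in siNC (log2 fold change -0.52, SE 0.07, edgeR, adjusted p = 5.44e-05). GUSB has many annotated pseudogenes, of which GUSBP1 and GUSBP11 also had counts here, so part of its reads may be shared.

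IDUA, the iduronidase of the same pathway, lay just outside the filter with a mean of 0.923 FPKM. It had 0.52, 0.48 and 0.51 FPKM in siUSP43, against 1.22, 1.51 and 1.3 FPKM in siNC, each siUSP43 value below the siNC values. In the fit with no filter its log2 fold change was -1.42 (SE 0.17, edgeR, adjusted p = 3.47e-16). Adjusted p of that fit cannot be compared with those of the main fit. For CTSV it was 3.79e-99 with no filter, against 4.58e-09 in the main fit (edgeR).

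MAN2B1, an alpha-mannosidase, had a log2 fold change of -0.15 (SE 0.06, edgeR, adjusted p = 0.0437), but that call ended in 12 of 14 alternative fits, 5 of the 6 that leave out a library among them (adjusted p = 0.0703 to 0.13). MAN2B1 also shares 13.1% of its exonic bases with an unnamed tested gene on the same strand. HEXA, a beta-hexosaminidase subunit, was at 5.1 ± 0.217 FPKM in siUSP43 and 5.04 ± 0.189 FPKM in siNC (SD, n = 3 each), with a 95% interval of -0.12 to 0.12 for its log2 fold change. GAA, the acid alpha-glucosidase that digests glycogen, had -0.16 (edgeR, adjusted p = 0.0964), and MANBA, a beta-mannosidase, had -0.15 (edgeR, adjusted p = 0.0979). MANBA passed without siUSP43 replicate 2 (log2 fold change -0.19, edgeR, adjusted p = 0.0484).

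Of the 5 sulfatases, which remove sulfate groups from glycosaminoglycans and sulfatide, 2 fell and 3 did not pass. The share called was 40.0%, beside 56.1% of all tested genes. ARSA (ENSG00000100299, chromosome 22, 50622754 to 50628173, minus strand), which acts on sulfatide, had 2.13, 2.06 and 1.85 FPKM in siUSP43, against 3.66, 3.55 and 3.97 FPKM in siNC. Each siUSP43 value was below each siNC value, and the log2 fold change was -0.91 (SE 0.09, edgeR, adjusted p = 5.39e-06). IDS, the iduronate sulfatase, had 1.27, 1.04 and 1.35 FPKM in siUSP43, against 1.74, 1.65 and 1.35 FPKM in siNC. It was called at -0.39 (SE 0.12, edgeR, adjusted p = 0.0134) although its groups met at 1.35 FPKM. The IDS call ended without siNC replicate 1 or 2 (adjusted p = 0.062 and 0.052) and with limma on log2(FPKM + 1), where the log2 fold change was -0.22. ARSB, GALNS and SGSH, which act on dermatan, keratan and heparan sulfate, each had a log2 fold change of -0.12 and adjusted p of 0.233, 0.262 and 0.126 (edgeR), and ARSB passed without siUSP43 replicate 3 (-0.19, adjusted p = 0.0463).

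The sphingolipid activators fell and a thioesterase rose. PSAP, the precursor of the saposins that present glycosphingolipids to hydrolases, had the highest FPKM of the 38 genes. It was at 259.25, 270.63 and 259.5 FPKM in siUSP43, against 314.89, 317.34 and 321.85 FPKM in siNC. Its log2 fold change was -0.29 (SE 0.04, edgeR, adjusted p = 8.39e-05), with no overlap. GM2A, the activator that lifts ganglioside GM2 for HEXA, was at 7.41, 7.56 and 7.4 FPKM in siUSP43, against 9.19, 9.11 and 9.02 FPKM in siNC (log2 fold change -0.31, SE 0.06, edgeR, adjusted p = 6.08e-04). PPT1 (ENSG00000131238, chromosome 1, 40072710 to 40097260, minus strand), which removes palmitate from proteins under degradation, had 44.44, 43.73 and 45.13 FPKM in siUSP43, against 25.01, 25.58 and 25.4 FPKM in siNC. It showed the largest increase of the 34, with widely separated groups and a log2 fold change of 0.79 (SE 0.04, edgeR, adjusted p = 5.52e-08). In GENCODE release 29 PPT1 shares 23.4% of its exonic bases with CAP1 on the other strand, which was at 151 FPKM in siUSP43 and 132 FPKM in siNC (log2 fold change 0.17). The gene spans in the deposited table do not overlap, and the part of CAP1 reads in the PPT1 counts was not tested.

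The membrane proteins did not share a direction. LAMP1 (chromosome 13, 113297239 to 113323672, plus strand), a heavily glycosylated protein that lines the lysosomal membrane, had 53.52, 55.1 and 51.05 FPKM in siUSP43, against 42.83, 43.35 and 44.99 FPKM in siNC, and rose by 0.27 (SE 0.05, edgeR, adjusted p = 4.43e-04). LAMP2, its relative with a role in autophagy, had 24.38, 22.44 and 24.95 FPKM in siUSP43, against 23.68, 23.59 and 21.75 FPKM in siNC. The LAMP2 groups overlapped, and the 95% interval of its log2 fold change was -0.07 to 0.15. SCARB2 (chromosome 4, 76158737 to 76234536, minus strand), an integral membrane protein of lysosomes that acts as a sorting receptor, had 4.18, 4.24 and 4.57 FPKM in siUSP43, against 6.8, 6.71 and 6.53 FPKM in siNC. It fell by 0.64 (SE 0.05, edgeR, adjusted p = 7.59e-07), with no overlap between the groups.

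CD63, a tetraspanin of late endosomes and exosomes, had 128.19, 140 and 117.53 FPKM in siUSP43, against 135.88, 130.55 and 144.14 FPKM in siNC, and did not pass (log2 fold change -0.11, edgeR, adjusted p = 0.179). It passed without siUSP43 replicate 2, the highest of its group (-0.17, adjusted p = 0.0191). MCOLN1, the calcium channel of the lysosomal membrane, had 2.17, 1.81 and 1.48 FPKM in siUSP43, against 1.91, 2.05 and 2.19 FPKM in siNC, a log2 fold change of -0.19 with a 95% interval of -0.49 to 0.10.

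TFE3 had 29.78, 28.72 and 27.42 FPKM in siUSP43, against 28.34, 26.71 and 27.58 FPKM in siNC, overlapping groups with a log2 fold change of 0.04 (95% interval -0.07 to 0.15, edgeR, adjusted p = 0.509). TFEB was below the filter, at 0.4, 0.4 and 0.41 FPKM in siUSP43, against 0.44, 0.56 and 0.43 FPKM in siNC, and with no filter its log2 fold change was -0.25 (SE 0.18, edgeR, adjusted p = 0.394). Both factors are controlled largely by their place in the cell, which RNA levels do not show.

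Promoter sequence was looked up because these factors bind the core CACGTG, in the longer forms TCACGTGA and the CLEAR element, which is TCACGTGA with a G before and a C after it. All 3 forms read the same on both strands, and each contains the shorter one. RefSeq start windows (GRCh38.p14, 250 bases before to 50 after each listed start) were found for 27 of the 38 genes. CACGTG was in at least 1 window of 9 of the 27 (33.3%), beside 12.9% of the 8587 tested genes in that table and 8.77% of all its genes. TCACGTGA was in 5 (18.5%, beside 2.5% of tested genes) and the CLEAR element in 3 (11.1%, beside 0.978%). Those 3 were GAA, GALNS and MCOLN1, none of which passed. These shares describe the promoters of genes chosen as lysosomal, and not a change in siUSP43. The windows of NEU1, which fell, and LAMP1, which rose, are shown whole, with each CACGTG in capitals, 5′ to 3′ on the strand of the gene.
NEU1 (GRCh38.p14 chr6:31862772-31863071, minus strand): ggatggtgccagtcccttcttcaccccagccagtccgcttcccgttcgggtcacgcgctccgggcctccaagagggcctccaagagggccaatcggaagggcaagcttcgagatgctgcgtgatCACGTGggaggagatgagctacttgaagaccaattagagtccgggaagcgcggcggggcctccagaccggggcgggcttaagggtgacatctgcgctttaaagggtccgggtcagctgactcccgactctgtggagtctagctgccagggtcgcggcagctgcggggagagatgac
LAMP1 (GRCh38.p14 chr13:113296989-113297288, plus strand): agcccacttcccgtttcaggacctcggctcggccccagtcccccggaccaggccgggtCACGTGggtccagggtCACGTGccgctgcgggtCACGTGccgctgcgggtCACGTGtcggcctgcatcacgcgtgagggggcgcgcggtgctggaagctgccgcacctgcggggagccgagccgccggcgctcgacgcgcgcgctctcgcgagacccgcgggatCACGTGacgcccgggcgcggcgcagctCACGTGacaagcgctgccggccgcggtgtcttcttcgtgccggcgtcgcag
The NEU1 window held 1 match and the LAMP1 window 6. Windows of 40 bases around 1 match each are given for the other 7 genes, of which CTSD and CTSA fell and GAA, GALNS, MCOLN1, CD63 and ARSB did not pass. CTSA, GAA, GALNS and MCOLN1 had 2 matches each, of which only 1 is in capitals. The CTSA window opens with the other match of that gene, in lower case.
CTSD (GRCh38.p14 chr11:1763952-1763991, minus strand): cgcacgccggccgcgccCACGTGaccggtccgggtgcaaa
CTSA (GRCh38.p14 chr20:45891293-45891332, plus strand): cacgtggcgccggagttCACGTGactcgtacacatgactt
GAA (GRCh38.p14 chr17:80101488-80101527, plus strand): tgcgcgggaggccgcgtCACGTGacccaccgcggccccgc
GALNS (GRCh38.p14 chr16:88857099-88857138, minus strand): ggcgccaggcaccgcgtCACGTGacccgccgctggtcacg
MCOLN1 (GRCh38.p14 chr19:7522593-7522632, plus strand): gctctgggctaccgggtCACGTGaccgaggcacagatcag
CD63 (GRCh38.p14 chr12:55729167-55729206, minus strand): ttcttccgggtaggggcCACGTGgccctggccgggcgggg
ARSB (GRCh38.p14 chr5:78986096-78986135, minus strand): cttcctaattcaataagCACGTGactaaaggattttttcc
Of the 9 tested genes with CACGTG, 1 rose, 3 fell and 5 did not pass, their log2 fold changes running from -1.25 to 0.27 around a median of -0.16. Of the 16 tested genes with a listed window and no CACGTG in it, 5 rose, 8 fell and 3 did not pass, with a median of -0.12 and a range of -2.07 to 0.79. Of all tested genes 28.0% rose and 28.1% fell. CTSV, FUCA1 and PPT1 were among the 16. A match describes the letters of a window and not binding, and its absence says only that these letters are not in these windows.

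The 3′ UTR words GGATCCA and GATCCAA, which were taken from an earlier look at these fold changes, were present in 4 of the 34 tested lysosomal genes (11.8%), beside 11.9% of 10049 tested genes with an annotated 3′ UTR of at least 50 bases. The 4 were CTSV and GM2A, which fell, CTSC, which rose slightly, and LAMP2, which did not pass. Their part in these results was not tested.

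Summed levels, to which the genes of a class with the highest FPKM contribute most, are given as a description with no test. The cysteine cathepsins summed to 86.75, 87.99 and 83.87 FPKM in siUSP43, against 99.85, 102.2 and 102.5 FPKM in siNC, with CTSB at 53.4% of the siUSP43 sum and 57.8% of the siNC sum. The sulfatases summed to 13.04, 12.76 and 12.22 FPKM in siUSP43, against 15.28, 15.61 and 15.41 FPKM in siNC. In both classes every siUSP43 sum lay below every siNC sum, at 0.849 and 0.821 times the siNC mean. The glycosidases summed to 97.11, 98.87 and 95.44 FPKM in siUSP43, against 99.72, 102.5 and 100.5 FPKM in siNC, and FUCA2 made up 44.4% of the siUSP43 sum and 26.5% of the siNC sum. Over all 38 genes the sums were 775.1 to 822.2 FPKM in siUSP43 and 855.4 to 877 FPKM in siNC. The membrane protein sums overlapped, at 199.6 to 223.6 FPKM in siUSP43 and 206.2 to 219.6 FPKM in siNC.

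**Figure D3:**
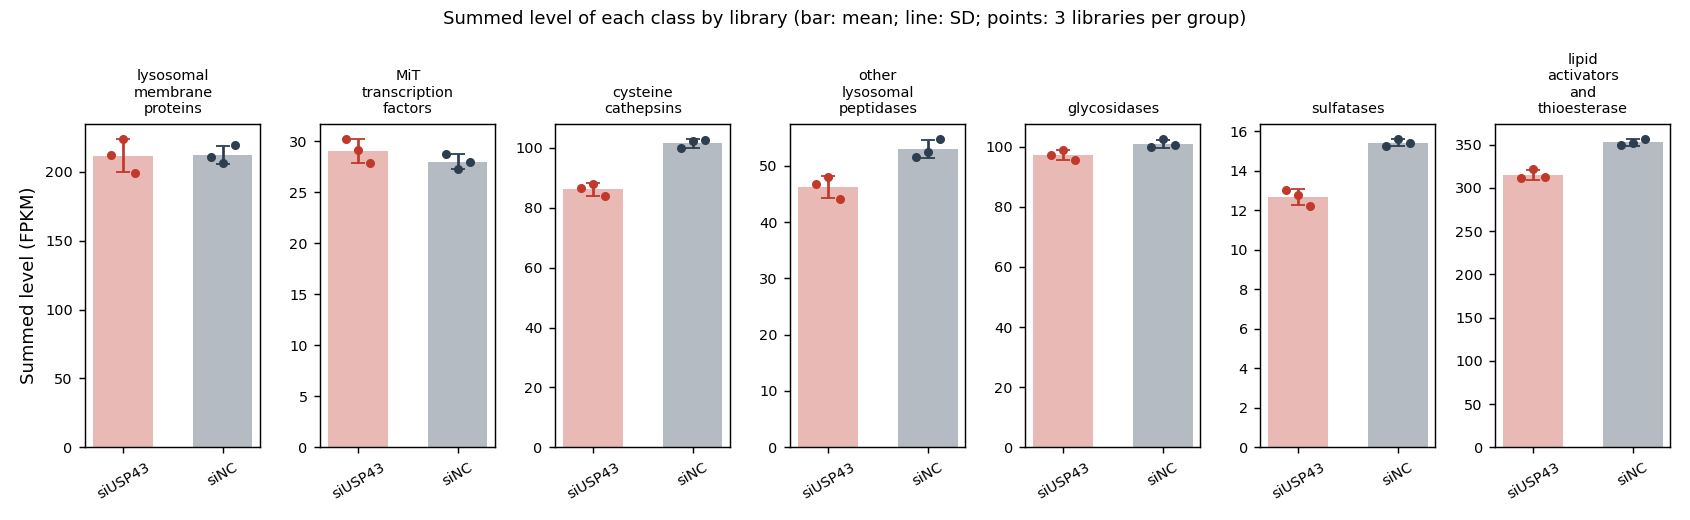
Summed FPKM of each lysosomal class, with points for the libraries, bars for the mean of 3 libraries and lines for the SD; red is siUSP43 and dark blue siNC, and each axis starts at 0. The siUSP43 sums lie below the siNC sums for the cathepsins, the other peptidases, the glycosidases, the sulfatases and the lipid activators, and overlap them for the membrane proteins and the MiT factors.

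Lysosomal genes outside the 38 were counted by list. Of 29 tested other lysosomal hydrolases 8 rose and 10 fell, with a median log2 fold change of -0.01. PPT2, a thioesterase related to PPT1, fell to 3.05 ± 0.212 FPKM in siUSP43, against 6.09 ± 0.184 FPKM in siNC (SD, n = 3 each; log2 fold change -1.02, edgeR, adjusted p = 1.20e-06), opposite in direction to PPT1. LIPA, the acid lipase that frees cholesterol and fatty acids, fell by 0.78 on the log2 scale. CREG1, a lysosomal glycoprotein kept in this list but not known as a hydrolase, fell by 0.66, while AGA, an amidase that cleaves glycoasparagine, rose by 0.67. LGMN, the asparaginyl protease that processes cathepsins, had 0.05 and did not pass. CTSF fell by 0.35 (edgeR, adjusted p = 0.0425), but did not pass in 6 of the 14 alternatives, those without siUSP43 replicate 3 or any 1 siNC library among them.

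Of 27 other lysosomal membrane proteins 9 rose and 10 fell, with a median of 0.02. TMEM192 rose by 1.03 and TMEM175, a potassium channel, by 0.61. The TMEM175 call was lost without siUSP43 replicate 1 or siNC replicate 1 (adjusted p = 0.066 and 0.0503), and the change was 0.38 with limma on log2(FPKM + 1). SIDT2 fell by 0.77, or by 0.42 with limma on log2(FPKM + 1), and passed the filter only through its siNC libraries, while ATP13A2, a polyamine exporter, fell by 0.74. NPC2, a soluble protein kept in this list, which hands cholesterol to NPC1, rose by 0.33, and NPC1 had 0.04 and did not pass. Of 18 V-ATPase subunits 5 rose and 5 fell, with ATP6V1A, the catalytic subunit, at -0.88 and ATP6V1G1 at 0.60. TCIRG1 and ATP6V0B, membrane sector subunits, were at -0.67 and -0.42.

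Of 17 genes of hydrolase tagging and sorting 5 rose and 4 fell. SUMF1, which activates sulfatases in the endoplasmic reticulum, rose to 3.83 ± 0.112 FPKM in siUSP43, against 1.85 ± 0.171 FPKM in siNC (SD, n = 3 each). The change was 1.03 on the log2 scale (SE 0.08, edgeR, adjusted p = 6.79e-07), while 2 of its 5 sulfatase substrates described above fell. IGF2R, a mannose 6-phosphate receptor, rose by 0.78 and GNPTAB, which makes the tag, by 0.40, and NAGPA, which uncovers it, fell by 0.34, or by 0.22 with limma on log2(FPKM + 1). Of 19 genes of nutrient sensing and MiT control 5 rose and 6 fell, with PPP3CB, RRAGD and LAMTOR1 at 0.52, 0.46 and 0.44 and MTOR at -0.65. MITF, another MiT factor, had 0.14 and did not pass. Of 12 cystatins, inhibitors of cysteine cathepsins, 2 were tested and both fell, CSTB by 0.55 and CST3 by 0.34, as did 28.1% of all tested genes. The called shares of the lists with more than 2 tested genes, 52.9 to 70.4%, stood around the 56.1% of all tested genes.

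**Figure D4:**
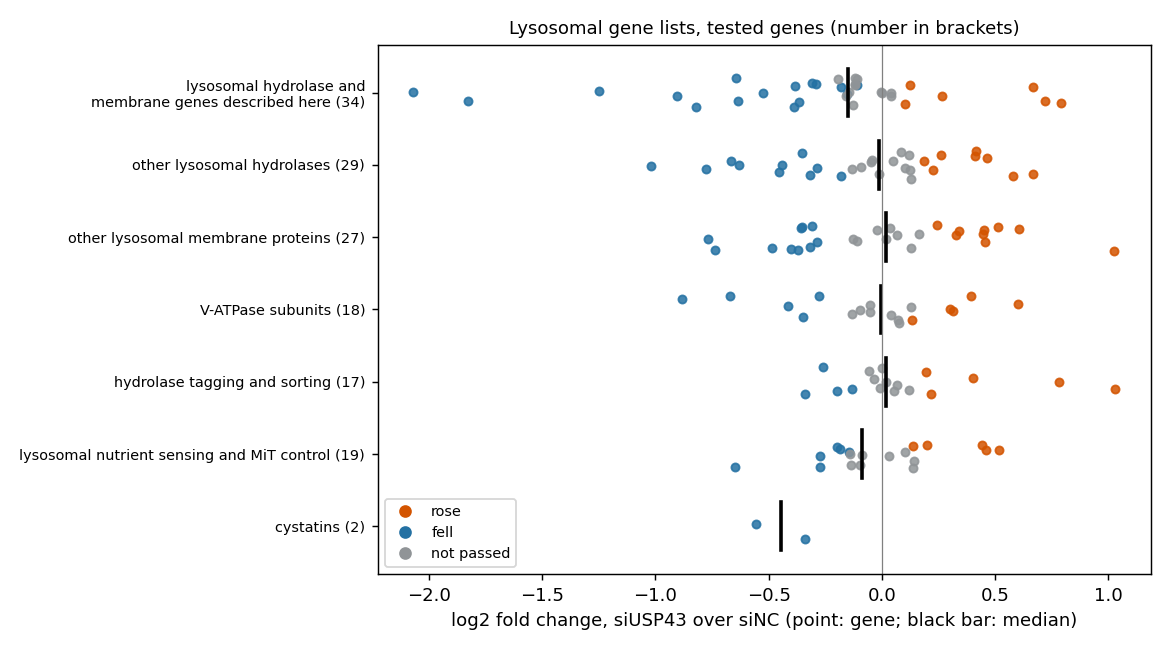
Log2 fold change, siUSP43 over siNC, of tested genes in the lysosomal lists; points are genes, colour gives the call, black bars are medians and brackets give the number tested. The median of the 34 genes is -0.15, and the medians of the 5 other lists with more than 2 tested genes lie between -0.09 and 0.02.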

How the data were processed

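The authors deposited raw counts per gene and FPKM for 63241 genes in 6 libraries, per the file headers, together with exonic gene sizes in bases. The submitters' processing notes name cutadapt 2.6, HISAT2 2.2.1 and the build GRCh38. Which read counter, annotation release and strand setting were used, and how multiply mapped reads were treated, is not given in the sources used here. Dividing by totals that were 1.18 to 1.19 times the sum of the gene counts gives back the FPKM of the deposited table. Exonic sizes cover all annotated exons (24849 bases for CTSC, 19388 for SCARB2), which lowers the FPKM of such genes relative to others. Without a stated strand setting a gene and an antisense partner cannot be told apart, and 6 of the 38 genes share exonic bases with another tested gene in GENCODE release 29.

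The labels gave each library's group and replicate. Counts were fitted with edgeR 4.0.16 in R 4.3.3 (quasi-likelihood test, TMM scaling, library sizes summed over all rows, group as the only term, two-sided, Benjamini-Hochberg adjustment over 11417 genes). SE is the absolute log2 fold change over the root of the F statistic, and intervals are 95%. Counts of the tested lysosomal genes had a median of 1349 and a minimum of 160. Alternatives used RLE size factors, library totals, DESeq2 1.42.0, limma 3.58.1 on log2(FPKM + 1) and log2(FPKM + 0.1), no filter on low values, edgeR's filterByExpr, a replicate block, and each library left out in turn. The 38 genes, the classes and the lists were chosen with earlier results of these data known. Named were all 38 genes, USP43, a fixed set of further genes (some of which are not reported here), and up to 4 called genes of each other list with the largest absolute change.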

Additional observations from a re-analysis of the deposited data

How the results depend on the processing

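Of 22 called lysosomal genes, 17 kept direction and call in all 14 alternatives, and CTSC, CTSL, TPP1, MAN2B1 and IDS lost the call in at least 1. Of the 12 that did not pass, CD63, GLB1, MANBA and ARSB passed in 1 alternative each, and no called gene changed sign. With the replicate number as a block 4 lysosomal genes rose and 14 fell, in place of 6 and 16, while the share of all tested genes called was 49.2% in place of 56.1%, and USP43 had a log2 fold change of -1.41. Deviations of same-numbered libraries from their group means had correlations of -0.0131, -0.126 and -0.261, and those of differently numbered ones -0.164 to 0.27, and the labels do not say that a number marks a pair, so the fit without the block was kept. The block gave 2 falls among the tagging and sorting genes and 3 among the nutrient sensing genes, in place of 4 and 6. Called sulfatases numbered 1 with limma on log2(FPKM + 1) and with limma on log2(FPKM + 0.1), in place of 2. Leaving out 1 library gave 4 to 6 lysosomal genes that rose and 13 to 18 that fell, with 47.5 to 57.4% of all tested genes called. It gave 1 to 3 called sulfatases (1 without siNC replicate 1 or 2), and 2 to 4 falls among the tagging and sorting genes (2 without siNC replicate 2). The median log2 fold change of the 34 genes was then -0.18 to -0.13. The cause of these differences was not tested. The fits that leave out a library also hold fewer samples, and the part of this was not tested either. Where a fit leaves 2 libraries in a group, their spread is taken to be like that of the others. TFEB, CTSK, CTSO and IDUA were left out of the main comparison by the filter on mean FPKM.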
